A study of Mus musculus with 23 samples.

Results

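Matrix proteases cut the proteins and proteoglycans around a cell, and tissue inhibitors of metalloproteinases hold them in check. The genes described here are the rows of the deposited table whose symbol is Mmp, Adamts or Adamtsl followed by a number, or Timp1 to Timp4, and whose estimated counts sum to at least 50 over the 23 libraries. Of 51 matching symbols, 33 met this minimum, out of 32793 rows in all, and are called members here: 12 Mmp genes, 13 Adamts genes, 5 Adamtsl genes and 3 Timp genes. Another 18 fell below it, and 6 of those were at 0 in every library. The members nearest the limit were Mmp10 with 77 summed counts and Mmp12 with 118, and the nearest genes outside it were Mmp24 with 33 and Timp4 with 30. All members except Mmp10 passed the filter on low counts, so that 32 were tested.

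The cells were C2C12, an immortal line of mouse myoblasts, whose cells multiply in rich medium and join into myotubes once serum is withdrawn. Poly(A) RNA of control (here WT) and Runx1KO cells was sequenced on day 0, when growth medium held 20% fetal bovine serum. Later libraries came after 1, 3 and 6 days with 2% horse serum. The day 0 WT group had 2 libraries and each of the other 7 groups had 3. The titles give the last time as day 6, which is followed here, and the series text gives it as 5 days. How the knockout was made, whether it is 1 clone, and whether replicates came from separate cultures are not given in the sources used here, so p-values measure only the spread between these libraries.

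The targeted gene went against its label: Runx1 mRNA was at 83.9 to 84.0 CPM in WT and 118.1 to 122.2 CPM in libraries labelled KO on day 0, and at 145.9 to 164.8 and 297.3 to 319.7 CPM on day 6. The values used here are per gene and do not show whether this Runx1 mRNA is intact. CPM is the estimated count relative to the library's total, scaled by edgeR's trimmed mean of M values (TMM). Groups are therefore called WT and labelled KO, with KO alone in the names of single libraries, and genotype here means this label. Each direction holds for the libraries as labelled. Library totals ran from 22197606 to 23684077 counts. Replicate 2 of the day 1 group labelled KO stood apart, with a root mean square deviation from its group of 0.364 on the log2 scale against 0.188 to 0.269 in the other 22 libraries. Markers of the cell state also moved with the label: the summed TPM (a level scaled for transcript length and library total) of 6 myotube genes was 2264 to 2437 in WT and 3554 to 6461 in libraries labelled KO on day 3, and 1794 to 2233 against 10862 to 12572 on day 6. A macrophage list (5 genes, 1 of them at 0 everywhere) reached 15.7 to 17.5 summed TPM on day 6 in libraries labelled KO and 5.22 to 9.23 in WT, and endothelial genes stayed at or below 1.79. Its 3 tested genes did not move together: on day 6, 1 was called higher and 1 lower in libraries labelled KO, and on days 1 and 3 the call was 1 lower each. Myoblast genes summed to 1025 to 1037 TPM in WT and 1380.3 to 1435 in libraries labelled KO on day 0, and 1164 to 1389 and 1842 to 1974 on day 6. Of these 5 genes, 2 were called higher and 1 lower on day 0, and 2 higher and 2 lower on day 6. Chondrocyte genes (1 of 4 at 0 everywhere) summed to 72.2 to 78.1 and 33.5 to 60.7 on day 1, and 64.5 to 64.8 and 35.4 to 43.7 on day 3, in the same order. Only 2 of them were tested, and they went opposite ways on these days. On each, 1 was called lower in libraries labelled KO, while the median log2 fold change of the 2 was 0.21 on day 1 and 0.64 on day 3. Neither was called on days 0 and 6. The part of these markers in the results was not tested, and in bulk RNA a change in the number of cells of a type and a change in RNA per cell cannot be told apart.

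Matrix metalloproteinases (Mmp) are zinc endopeptidases that are made as inactive proenzymes and are either secreted or held at the cell surface. Adamts proteases are secreted relatives that cut proteoglycans such as versican and aggrecan or trim procollagens, and the Adamts-like proteins share their accessory domains but lack the protease domain. Timp proteins bind the active site of these enzymes; Timp3 is bound to the matrix and also inhibits several Adamts proteases, and Timp2 takes part in the activation of pro-Mmp2 by Mmp14 at the cell surface. In muscle, gelatinases and Mmp14 have been studied in myoblast migration and regeneration, and versican cleavage by Adamts proteases in myoblast fusion.

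Between libraries labelled KO and WT, more members were called lower than higher on each day, with the inhibitors and the Adamts-like genes counted among them. On day 0, 18 of 32 (7 higher, 11 lower) differed at an adjusted p under 0.05 (edgeR's quasi-likelihood test, Benjamini-Hochberg over 14187 genes), or 56.2%, where 17.5% of all tested genes did. The count was 22 of 32 (6 higher, 16 lower) on day 1, against a background of 42.2%, 25 of 32 (9 higher, 16 lower) on day 3, against 43.2%, and 20 of 32 (7 higher, 13 lower) on day 6, against 42.9%. Of all tested genes, 7.36% were higher and 10.1% lower on day 0, 22.9% and 19.2% on day 1, 24% and 19.2% on day 3, and 22% and 20.8% on day 6. Adamts3, Adamts12 and Mmp17, lower where called, met the low-count filter (edgeR's filterByExpr, minimum count 10) only through WT libraries; without them 7, 6, 9 and 7 members were higher and 9, 13, 13 and 10 lower on days 0, 1, 3 and 6. With an absolute log2FC of at least 1 as well, the members' counts were 9, 10, 9 and 10, where 5.59%, 8.83%, 11.1% and 12.2% of all tested genes passed. These counts still include Adamts3, Adamts12 and Mmp17 on the days when they passed, so part of them was built in by the filter. Without replicate 2 of the day 1 group labelled KO, the counts were 18, 24, 26 and 22. The day 0 count rested on the WT libraries: without WT replicate 1 it was 10. The members' median log2 fold change (log2FC, labelled KO against WT) was -0.31, -0.19, -0.35 and -0.24 on days 0, 1, 3 and 6, against medians of all genes between -0.0011 and 0.0403. Adamts3, Adamts12 and Mmp17 are included in these medians. With genes at the count floor set to their bound, or left out where both groups were at it, the day 1 median was -0.33 and the others were unchanged.

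In all, 10 members, 31.2% of those tested, differed in 1 direction on all 4 days, where 8.85% of all tested genes did. Higher in libraries labelled KO on each day were Mmp9, Mmp15 and Adamts5, and lower were Mmp2, Mmp14, Mmp17, Mmp28, Adamts3, Adamts10 and Adamtsl1. Of these, Mmp17 and Adamts3 met the filter only through WT libraries, so a difference was built into their entry and their calls support nothing; 8 members are left without them. The count of 10 also rested on 1 library: without WT day 0 replicate 1 it was 6, where 5.21% of all tested genes passed, and Mmp14, Mmp17, Mmp28 and Adamtsl1 lost their day 0 call. With limma on log2(TPM + 1) it was 6, where 7.91% of all tested genes passed. On at least 1 day, 30 members differed (93.8%, against 69.3% of all tested genes), and Mmp12 and Mmp16 differed on none. Adamts6 and Timp3 differed in opposite directions on different days. Members that were lower outnumbered those that were higher on each day also with RLE scaling, with library size only, in DESeq2 and on both TPM scales. On day 0 they did not outnumber them without WT day 0 replicate 1, a fit that leaves 1 library in that group. With library size only and on the TPM scales the share of higher calls among all genes was lower than with TMM, on day 3 dropping from 55.5% to 34.3% with log2(TPM + 1), on day 6 from 51.4% to 34.9%, on day 1 from 54.4% to 43.3%, and on day 0 from 42.1% to 29.5% with library size only. The TPM scales moved the median of all genes in these comparisons by -0.045 to -0.15, and values below are relative to the TMM median.

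**Figure D1:**
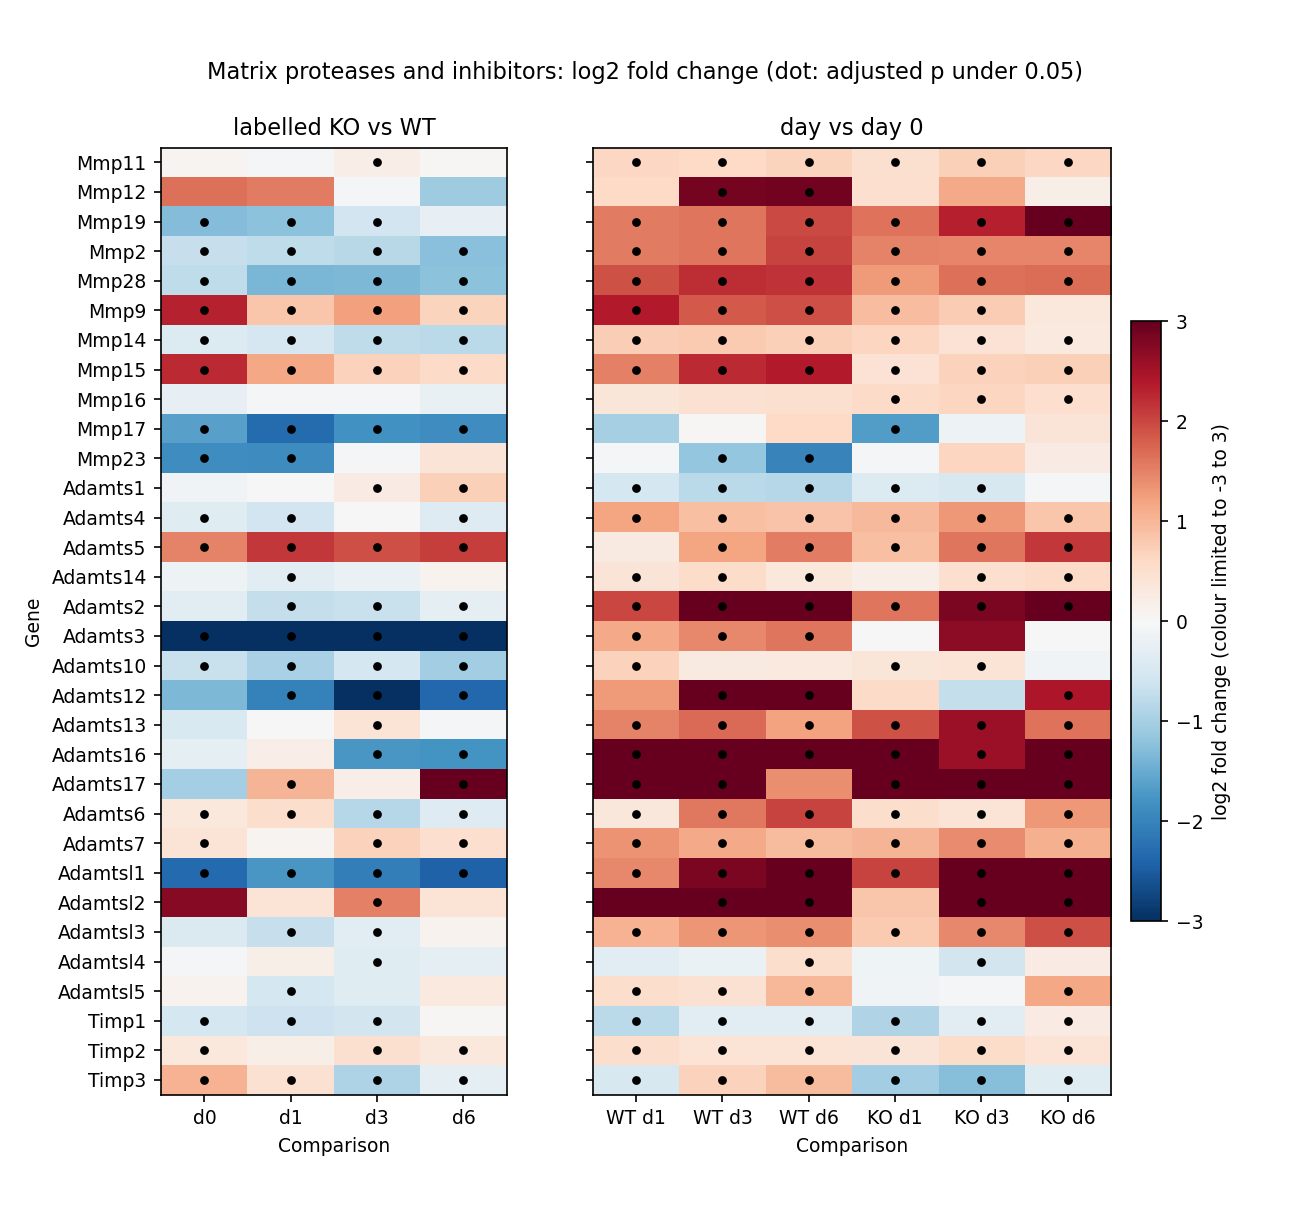
Log2 fold changes of the 32 tested genes, as a heat map with genes in rows. The left panel compares libraries labelled KO with WT on days 0, 1, 3 and 6, and the right panel compares days 1, 3 and 6 with day 0 within each genotype; red is higher, blue is lower, colours are limited to -3 to 3, and dots mark an adjusted p under 0.05 by edgeR. Blue rows such as Adamtsl1 and red rows such as Adamts5 keep their colour across the left panel, and most of the right panel is red.

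A few genes held most of this mRNA. Timp2 had a mean of 723 TPM over the 23 libraries, Timp1 402, Mmp2 333, Mmp14 181 and Timp3 118.5, and these 5 genes held 82.22% of the members' summed mean TPM. Among the inhibitors the order differed in WT on day 0, where Timp1 was at 554 ± 1.47 TPM and Timp2 at 471 ± 16.1 (SD, n = 2 each). In all, 16 members had a mean of at least 10 TPM; Mmp11 (77.5 TPM), Adamts7 (56.8), Mmp15 (43.3) and Adamts4 (33.1) followed the first 5. The 7 members under 1 TPM included Adamts3 (0.219 TPM), Adamts12 (0.198), Mmp17 (0.152) and Adamtsl1 (0.833), so that some of the steepest changes below concern scarce transcripts.

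All 3 Timp genes differed between the genotypes on some days, each with its own course; 3, 2, 3 and 2 of 3 passed the test on days 0, 1, 3 and 6. The background for this and the other role counts below was 17.5%, 42.2%, 43.2% and 42.9% of all tested genes. Timp3, the matrix-bound inhibitor (chr10:86300372-86349506, plus strand of GRCm38, GENCODE vM21), was higher in libraries labelled KO on days 0 and 1 and lower on days 3 and 6. In WT, Timp3 stood at 244 and 240.5 CPM on day 0 and 173, 191 and 162 on day 1. WT Timp3 was at 405, 376 and 398 CPM on day 3 and 466, 436 and 502 on day 6. For Timp3 the libraries labelled KO gave 451, 536 and 513, then 221, 263 and 239, then 220.3, 206 and 196 and then 407, 380.0 and 379.6 CPM. The groups did not overlap on any day, and the order of the genotypes turned over between day 1 and day 3. The log2FC of Timp3 was 1.04 (SE 0.0941, adjusted p = 1.57e-08) on day 0 and 0.46 (SE 0.0820, adjusted p = 9.44e-05) on day 1 in edgeR. For Timp3, days 3 and 6 gave -0.92 (SE 0.0823, adjusted p = 4.47e-09) and -0.27 (SE 0.0814, adjusted p = 0.0103). Timp3 lies within Syn3, a gene on the opposite strand, with no exonic overlap; use of strand in the counting is not given in the sources used here.

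By days 3 and 6, Timp3 had risen above its day 0 level in WT and fallen below it in libraries labelled KO. The change since day 0 was -0.47 on day 1 (adjusted p = 0.000122), 0.70 on day 3 (adjusted p = 9.67e-07) and 0.95 on day 6 (adjusted p = 6.89e-09) in WT by edgeR with Benjamini-Hochberg adjustment. In libraries labelled KO it was -1.05 on day 1 (adjusted p = 3.30e-10), -1.27 on day 3 (adjusted p = 6.55e-12) and -0.36 on day 6 (adjusted p = 0.000386) by the same test. On day 1 the level was below that of day 0 in both genotypes. The difference between the genotypes in this change (the interaction term) was -0.58 (SE 0.123, adjusted p = 0.00755) on day 1, -1.97 (SE 0.125, adjusted p = 4.86e-10) on day 3 and -1.31 (SE 0.124, adjusted p = 7.57e-08) on day 6 in edgeR. The day 1 interaction was lost without WT day 0 replicate 2, at -0.57 (adjusted p = 0.0611), and with limma on log2(TPM + 1), at -0.56 (adjusted p = 0.0608), with limma on log2(TPM + 0.1), at -0.56 (adjusted p = 0.0693) and with a fit on only the groups compared, at -0.61 (adjusted p = 0.0507).

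Timp1, a soluble inhibitor (chrX:20870166-20874735, plus strand; it lies within Syn1 on the opposite strand, with no exonic overlap), was lower in libraries labelled KO on days 0, 1 and 3. In WT, Timp1 stood at 242 and 256 CPM on day 0 and 138, 145 and 145 on day 1. WT Timp1 was at 199, 209 and 189 CPM on day 3 and 185, 223 and 186 on day 6. Under the KO label, Timp1 was at 165, 175 and 178 CPM on day 0, 100.2, 76.5 and 99.7 on day 1, 149, 133 and 125 on day 3 and 206, 199 and 205 on day 6. The groups were apart on the first 3 of these days and overlapped on day 6. The log2FC of Timp1 was -0.53 (SE 0.102, adjusted p = 0.000565) on day 0 and -0.63 (SE 0.0931, adjusted p = 1.02e-05) on day 1 in edgeR. For Timp1, days 3 and 6 gave -0.55 (SE 0.0924, adjusted p = 3.70e-05) and 0.04 (SE 0.0918, adjusted p = 0.768). The interaction on day 6 was 0.57 (SE 0.137, adjusted p = 0.00619) in edgeR: between day 0 and day 6, Timp1 fell in WT (-0.33) and rose in libraries labelled KO (0.24). That fall in WT was lost without WT day 0 replicate 2, at -0.29 (adjusted p = 0.0639), without WT day 6 replicate 1, at -0.23 (adjusted p = 0.0709) and without WT day 6 replicate 3, at -0.23 (adjusted p = 0.0722), and with limma on log2(TPM + 1), at -0.15 (adjusted p = 0.141) and with limma on log2(TPM + 0.1), at -0.15 (adjusted p = 0.142). The rise in libraries labelled KO was lost without KO day 0 replicate 1, at 0.20 (adjusted p = 0.0848), without KO day 6 replicate 1, at 0.23 (adjusted p = 0.0536) and without KO day 6 replicate 3, at 0.23 (adjusted p = 0.056).

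Timp2, a partner of Mmp14 in pro-Mmp2 activation (chr11:118301069-118355740, minus strand), was higher in libraries labelled KO on days 0, 3 and 6. In WT, Timp2 stood at 1061 and 1065 CPM on day 0 and 1538, 1489 and 1574 on day 1. WT Timp2 was at 1474, 1364 and 1372 CPM on day 3 and 1334, 1445 and 1481 on day 6. On the same days Timp2 was at 1323, 1352 and 1291, then 1887, 1407 and 1901, then 1997, 1919.5 and 1926 and then 1705, 1789 and 1779 CPM in libraries labelled KO. The groups were apart on those 3 days, and on day 1 only replicate 2 of the group labelled KO, the library that stood apart, was below the WT values. The log2FC of Timp2 was 0.31 (SE 0.0926, adjusted p = 0.0198) on day 0 and 0.18 (SE 0.0821, adjusted p = 0.0909) on day 1 in edgeR. For Timp2, days 3 and 6 gave 0.47 (SE 0.0823, adjusted p = 6.10e-05) and 0.31 (SE 0.0822, adjusted p = 0.00403). Without that library the day 1 value was 0.28 (adjusted p = 0.000364). The day 0 difference was lost without KO day 0 replicate 2, at 0.30 (adjusted p = 0.0609), without WT day 0 replicate 1, at 0.33 (adjusted p = 0.0873) and without WT day 0 replicate 2, at 0.32 (adjusted p = 0.108), and with limma on log2(TPM + 1), at 0.25 (adjusted p = 0.0711) and with limma on log2(TPM + 0.1), at 0.25 (adjusted p = 0.0667). The difference on day 6 was lost with limma on log2(TPM + 1), at 0.18 (adjusted p = 0.0825) and with limma on log2(TPM + 0.1), at 0.18 (adjusted p = 0.0846).

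**Figure D2:**
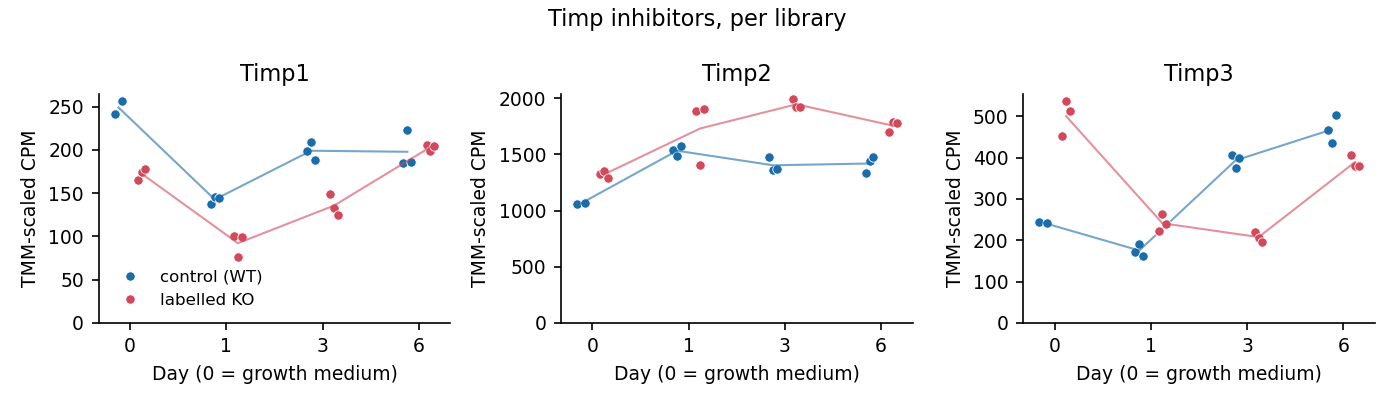
TMM-scaled CPM of Timp1, Timp2 and Timp3 (vertical axes, linear from 0) by day (horizontal axis), with 1 point per library, WT in blue and libraries labelled KO in red; lines join group means. For Timp3 the red points are above the blue on days 0 and 1 and below them on days 3 and 6.

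Among the secreted Mmp genes, 4, 4, 5 and 3 of 6 tested passed on days 0, 1, 3 and 6; Mmp2, Mmp19 and Mmp28 were lower in libraries labelled KO, and Mmp9 was higher. Mmp2, gelatinase A, which degrades type IV collagen and denatured collagen (chr8:92827291-92853420, plus strand), had the highest mean TPM of the proteases over all libraries. On day 0 Mmp2 was not above Mmp14 beyond the spread: Mmp2 was at 142 ± 4.06 TPM and Mmp14 at 135 ± 12.7 (SD, n = 2 each) in WT, with overlapping ranges. Libraries labelled KO had Mmp2 at 84.9 ± 8.87 and Mmp14 at 97.9 ± 3.86 (SD, n = 3 each), and the ranges did not overlap. In WT, Mmp2 stood at 268 and 271 CPM on day 0 and 808, 799.7 and 773 on day 1. WT Mmp2 was at 865, 774 and 834 CPM on day 3 and 1053, 1157 and 1085 on day 6. For Mmp2 the libraries labelled KO gave 180.4, 173 and 149, then 475, 428 and 502, then 464, 478 and 445 and then 477, 449 and 463 CPM. Every library labelled KO was below every WT library of its day. The log2FC of Mmp2 was -0.69 (SE 0.0824, adjusted p = 1.36e-06) on day 0 and -0.76 (SE 0.0742, adjusted p = 2.83e-08) on day 1 in edgeR. For Mmp2, days 3 and 6 gave -0.83 (SE 0.0743, adjusted p = 4.41e-09) and -1.25 (SE 0.0749, adjusted p = 3.41e-12). All WT libraries of day 6 were above those of day 3, while the values under the KO label overlapped among days 1, 3 and 6. The change of Mmp2 from day 0 to day 6 was 2.03 (adjusted p = 9.56e-15) in WT and 1.47 (adjusted p = 4.36e-14) in libraries labelled KO in edgeR, and the interaction was -0.56 (SE 0.112, adjusted p = 0.00118).

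Mmp9, gelatinase B (chr2:164940780-164955850, plus strand), cuts the same kinds of substrate and went in the opposite direction, at a level that was much lower than that of Mmp2 (9.88 against 333 mean TPM). In WT, Mmp9 stood at 3.56 and 3.15 CPM on day 0 and 17.0, 19.5 and 16.1 on day 1. WT Mmp9 was at 14.4, 12.5 and 8.94 CPM on day 3 and 10.2, 15.7 and 12.8 on day 6. Under the KO label, Mmp9 was at 17.1, 17.5 and 15 CPM on day 0, 33.3, 25.2 and 35.1 on day 1, 31.9, 25.1 and 26.7 on day 3 and 23.4, 19.7 and 18.9 on day 6. The groups did not overlap on any day, and the largest fold was that of day 0. Macrophages are known to make Mmp9; the calls among their marker genes split in direction on day 6, as given above, and their part in the Mmp9 values was not tested. The log2FC of Mmp9 was 2.30 (SE 0.222, adjusted p = 5.28e-08) on day 0 and 0.83 (SE 0.158, adjusted p = 0.000195) on day 1 in edgeR. For Mmp9, days 3 and 6 gave 1.22 (SE 0.163, adjusted p = 1.91e-06) and 0.68 (SE 0.163, adjusted p = 0.00166). The rise from day 0 to day 1 was 2.38 (adjusted p = 4.05e-09) in WT and 0.92 (adjusted p = 4.09e-05) in libraries labelled KO in edgeR, and the interaction was -1.47 (SE 0.273, adjusted p = 0.00309) on day 1, -1.07 (SE 0.276, adjusted p = 0.0123) on day 3 and -1.62 (SE 0.276, adjusted p = 0.000224) on day 6. The day 3 interaction of Mmp9 was lost without WT day 0 replicate 2, at -0.99 (adjusted p = 0.0974).

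Mmp28, epilysin, a secreted protease (chr11:83440768-83463071, minus strand), was lower in libraries labelled KO on all 4 days. In WT, Mmp28 stood at 5.63 and 4.91 CPM on day 0 and 21.9, 19.3 and 17.9 on day 1. WT Mmp28 was at 24.2, 25.3 and 24.6 CPM on day 3 and 22.1, 21.6 and 26.8 on day 6. On the same days Mmp28 was at 2.90, 3.87 and 2.60, then 9.07, 5.65 and 8.10, then 8.28, 12.2 and 8.84 and then 11.2, 8.99 and 9.76 CPM in libraries labelled KO. Both genotypes gained Mmp28 after day 0, and the groups of each day were apart. The log2FC of Mmp28 was -0.75 (SE 0.215, adjusted p = 0.0159) on day 0 and -1.38 (SE 0.159, adjusted p = 3.82e-07) on day 1 in edgeR. For Mmp28, days 3 and 6 gave -1.34 (SE 0.155, adjusted p = 2.68e-07) and -1.24 (SE 0.155, adjusted p = 6.70e-07). The call of day 0 was lost without KO day 0 replicate 1, at -0.68 (adjusted p = 0.0593), without KO day 0 replicate 3, at -0.64 (adjusted p = 0.0794) and without WT day 0 replicate 1, at -0.63 (adjusted p = 0.183), and with limma on log2(TPM + 1), at -0.53 (adjusted p = 0.051). Of its exonic bases, 12.3% are shared with 1700020L24Rik, a gene with 1254 summed counts.

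Mmp19, a protease of basement membrane proteins (chr10:128790910-128800824, plus strand), approached WT levels with time. In WT, Mmp19 stood at 9.28 and 7.50 CPM on day 0 and 25.1, 25.0 and 24.6 on day 1. WT Mmp19 was at 25.8, 24.9 and 25.9 CPM on day 3 and 32.1, 31.6 and 35.1 on day 6. For Mmp19 the libraries labelled KO gave 4.17, 4.11 and 1.90, then 10.2, 10.1 and 11.3, then 17.0, 18.1 and 16.6 and then 31.2, 25.6 and 26.5 CPM. The groups were apart on each day, by a margin that was narrow on day 6. The log2FC of Mmp19 was -1.30 (SE 0.185, adjusted p = 1.42e-05) on day 0 and -1.24 (SE 0.139, adjusted p = 2.28e-07) on day 1 in edgeR. For Mmp19, days 3 and 6 gave -0.57 (SE 0.134, adjusted p = 0.00146) and -0.25 (SE 0.130, adjusted p = 0.133). The interaction was 0.74 (SE 0.229, adjusted p = 0.0388) on day 3 and 1.06 (SE 0.226, adjusted p = 0.0022) on day 6 (edgeR, Benjamini-Hochberg). The day 3 interaction of Mmp19 was lost when any of 13 single libraries was left out, at 0.45 to 0.76, and in 5 other alternatives, at 0.49 to 0.82. On day 6 the genotypes differed past the threshold without KO day 0 replicate 3, at -0.25 (adjusted p = 0.0253), and without KO day 6 replicate 1, at -0.36 (adjusted p = 0.0474). These values are uncertain, because 22.8% of Mmp19's exonic bases are shared with Tmem198b on the opposite strand, whose 20607 summed counts exceed the 10191 of Mmp19.

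The remaining secreted genes were Mmp11, Mmp12 and Mmp10. Mmp11, stromelysin-3, ranged from 64.1 to 114 CPM over all libraries and differed on day 3 alone, by 0.20 (adjusted p = 0.0497) in edgeR. This call was lost when any of 19 single libraries was left out, at 0.16 to 0.21, and in 8 other alternatives, at 0.02 to 0.20. Mmp12, macrophage elastase, had at most 14 counts in a library. Mmp10, stromelysin-2, was too low to test: WT libraries held 6 and 2 counts on day 0, 7, 7 and 9 on day 1, 2, 6 and 8 on day 3 and 10, 8 and 8 on day 6, and libraries labelled KO held 0, 1 and 1, then 0, 1 and 1, then 0 in all 6 libraries of days 3 and 6. Against a floor of 3 counts per library, Mmp10 on day 3 was at least 1.72-fold lower under the KO label, and on day 6 at least 2.86-fold lower.

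Of the 5 membrane-bound Mmp genes, 4, 4, 3 and 3 passed on days 0, 1, 3 and 6; Mmp14 and Mmp17 were lower in libraries labelled KO on every day and Mmp15 was higher. The day 0 count was 1 without WT day 0 replicate 1, as Mmp14, Mmp17 and Mmp23 lost their call, and without Mmp17, which met the filter only through WT, 3, 3, 2 and 2 of 4 passed. Mmp14 (MT1-MMP, chr14:54431612-54445364, plus strand) is a transmembrane collagenase and the main cell-surface activator of pro-Mmp2. In WT, Mmp14 stood at 333 and 307 CPM on day 0 and 581, 496 and 535 on day 1. WT Mmp14 was at 578, 588 and 482 CPM on day 3 and 460.0, 552 and 559 on day 6. Under the KO label, Mmp14 was at 229.7, 245 and 252 CPM on day 0, 394, 322 and 417 on day 1, 337, 337 and 300.4 on day 3 and 319, 288 and 287 on day 6. The groups were apart on each day. The log2FC of Mmp14 was -0.40 (SE 0.110, adjusted p = 0.0129) on day 0 and -0.51 (SE 0.0991, adjusted p = 0.000262) on day 1 in edgeR. For Mmp14, days 3 and 6 gave -0.76 (SE 0.0995, adjusted p = 1.56e-06) and -0.81 (SE 0.0996, adjusted p = 4.95e-07). The day 0 call of Mmp14 was lost without KO day 0 replicate 1, at -0.33 (adjusted p = 0.0644) and without WT day 0 replicate 1, at -0.32 (adjusted p = 0.185). Mmp2 and Mmp14, the proenzyme and its activator, both had lower mRNA in libraries labelled KO, while Timp2 was higher on days 0, 3 and 6.

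Mmp15 (MT2-MMP, chr8:95352268-95375080, plus strand), another transmembrane member, moved the opposite way. In WT, Mmp15 stood at 22.9 and 20.0 CPM on day 0 and 64.6, 50.3 and 67.2 on day 1. WT Mmp15 was at 107, 104 and 90.3 CPM on day 3 and 106, 111 and 117 on day 6. On the same days Mmp15 was at 85.6, 100.3 and 119.7, then 163, 97.4 and 149, then 173, 152 and 166 and then 153, 177 and 168 CPM in libraries labelled KO. The groups were apart on each day, with the largest fold on day 0. The log2FC of Mmp15 was 2.25 (SE 0.181, adjusted p = 2.54e-09) on day 0 and 1.17 (SE 0.146, adjusted p = 1.11e-06) on day 1 in edgeR. For Mmp15, days 3 and 6 gave 0.70 (SE 0.144, adjusted p = 0.000364) and 0.58 (SE 0.143, adjusted p = 0.00209). From day 0 to day 6, Mmp15 rose with a log2FC of 2.37 (adjusted p = 9.93e-11) in WT and 0.71 (adjusted p = 0.00014) in libraries labelled KO in edgeR. The interaction was -1.08 (SE 0.226, adjusted p = 0.0072) on day 1, -1.54 (SE 0.226, adjusted p = 5.15e-05) on day 3 and -1.67 (SE 0.226, adjusted p = 1.31e-05) on day 6. The day 1 interaction of Mmp15 was lost without WT day 0 replicate 2, at -0.98 (adjusted p = 0.0793), and with a fit on only the groups compared, at -1.11 (adjusted p = 0.0603).

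Promoter sequence (250 bases before to 50 after the annotated start, GRCm38.p6) was taken from RefSeq for 21 of the 33 genes, in 23 windows; Mmp2, Mmp9 and Adamts5 were not among them. Both strands were searched for the RUNX core TGTGGT, the ETS core CCGGAA, the AP-1 motif TGANTCA and the E-box CAGCTG. No window held more than 1 kind of these 4 motifs, and those of Adamts2 and Adamtsl2 held 2 E-boxes each. The RUNX core was in 2 of the 23 windows, those of Mmp14 and Mmp23, and in 16.8% of all 32851 promoters; the ETS core was in 1 (Adamts14) against 14.9%, the AP-1 motif in 2 (Mmp10 and Mmp12) against 7.8%, and the E-box in 6 against 16.3%. Shown here are Mmp14 and Mmp28, lower on all 4 days, and Mmp15, higher on all 4 days, with RUNX, ETS and AP-1 matches in capitals; the match in Mmp14 begins at -114, counted from the start. A match is a description of letters and not of binding, and Mmp28 and Mmp15 show no capitals. 
Mmp14 (chr14:54431348-54431647, plus strand): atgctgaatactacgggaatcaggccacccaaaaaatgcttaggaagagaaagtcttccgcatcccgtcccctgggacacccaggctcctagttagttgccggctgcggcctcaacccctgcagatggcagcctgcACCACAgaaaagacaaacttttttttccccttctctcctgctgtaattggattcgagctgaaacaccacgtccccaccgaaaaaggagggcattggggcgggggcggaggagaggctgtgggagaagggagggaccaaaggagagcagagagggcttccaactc
Mmp28 (chr11:83462991-83463290, minus strand): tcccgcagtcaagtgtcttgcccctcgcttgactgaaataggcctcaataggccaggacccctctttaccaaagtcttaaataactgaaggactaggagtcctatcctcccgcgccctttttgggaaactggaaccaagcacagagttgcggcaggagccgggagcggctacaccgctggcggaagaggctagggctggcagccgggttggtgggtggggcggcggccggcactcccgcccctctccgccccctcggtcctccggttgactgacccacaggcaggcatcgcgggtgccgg
Mmp15 (chr8:95352046-95352345, plus strand): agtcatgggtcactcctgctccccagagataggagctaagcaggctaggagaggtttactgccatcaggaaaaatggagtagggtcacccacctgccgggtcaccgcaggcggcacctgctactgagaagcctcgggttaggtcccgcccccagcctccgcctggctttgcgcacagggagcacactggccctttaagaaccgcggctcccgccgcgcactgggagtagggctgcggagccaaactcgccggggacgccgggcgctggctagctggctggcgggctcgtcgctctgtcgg

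Mmp17, which is anchored to the membrane by a lipid, was scarce and lower in libraries labelled KO: WT libraries held 16 and 12 counts on day 0, 7, 8 and 7 on day 1, 16, 13 and 16 on day 3 and 21, 20 and 26 on day 6. Libraries labelled KO held 6, 6 and 1, then 2, 0 and 2, then 4, 3 and 5 and then 4, 6 and 8 counts. Mmp17 entered the test only through its WT libraries, and the p-values that follow are a description. The ratio of WT to labelled KO on day 1 was 5.33 with a 95% exact interval of 1.81 to 21.3, which covers counting error only. The edgeR log2FC with Benjamini-Hochberg adjustment was -1.63 (adjusted p = 0.0272) on day 0, -1.83 (adjusted p = 0.0029) on day 3 and -1.86 (adjusted p = 0.000916) on day 6. The day 0 call of Mmp17 was lost without KO day 0 replicate 3, at -1.18 (adjusted p = 0.129), without WT day 0 replicate 1, at -1.43 (adjusted p = 0.223) and without WT day 0 replicate 2, at -1.79 (adjusted p = 0.073), and with no filter, at -1.63 (adjusted p = 0.0714) and with a fit on only the groups compared, at -1.63 (adjusted p = 0.0556). Its day 1 call was lost with limma on log2(TPM + 1), at -0.14 (adjusted p = 0.0719). Mmp23 was lower in libraries labelled KO on days 0 and 1 (edgeR log2FC -1.87 with adjusted p = 0.00874, and -1.89 with adjusted p = 0.00159) and did not pass on days 3 and 6. The day 0 call of Mmp23 was lost without WT day 0 replicate 1, at -1.41 (adjusted p = 0.19). Mmp16 (MT3-MMP) passed on no day, with log2FC between -0.25 and -0.05.

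**Figure D3:**
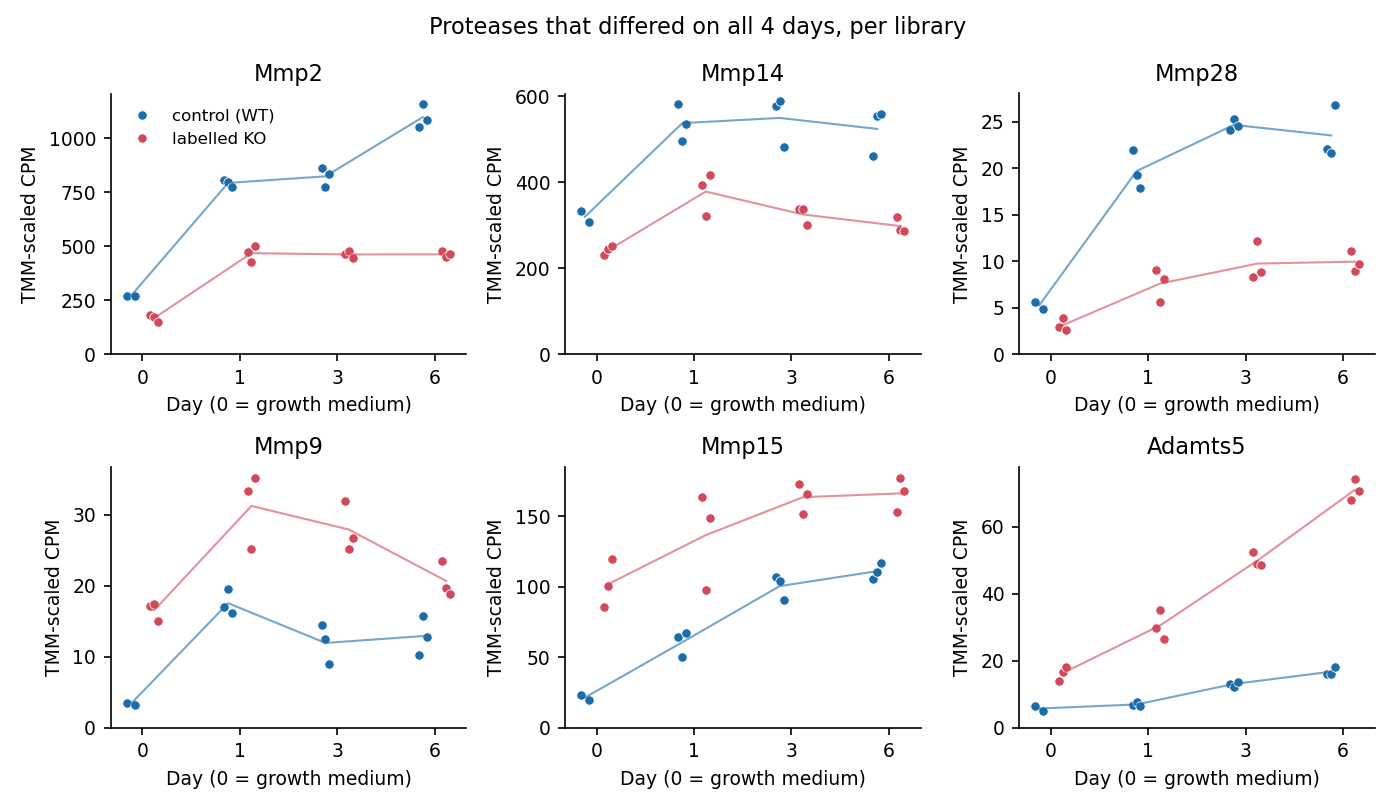
TMM-scaled CPM (vertical axes, linear from 0) of 6 proteases that passed the test in 1 direction on all 4 days, by day (horizontal axes); 1 point is 1 library, WT in blue and labelled KO in red, and lines join group means. Red points lie below blue on each day for Mmp2, Mmp14 and Mmp28 and above blue for Mmp9, Mmp15 and Adamts5.

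Among the Adamts genes whose products cut aggrecan and versican, Adamts1, Adamts4 and Adamts5 were measured, and 2, 2, 2 and 3 of these 3 passed on days 0, 1, 3 and 6; the count was 1 on day 0 when any of 9 single libraries was left out, and on day 3 when any of 19 was. Adamts5, an aggrecanase that also cleaves versican (chr16:85856173-85901828, minus strand), was higher in libraries labelled KO throughout. In WT, Adamts5 stood at 6.55 and 4.95 CPM on day 0 and 6.84, 7.68 and 6.41 on day 1. WT Adamts5 was at 13.1, 12.3 and 13.8 CPM on day 3 and 15.9, 16.1 and 18.2 on day 6. For Adamts5 the libraries labelled KO gave 14.0, 16.8 and 18.1, then 29.9, 35.3 and 26.4, then 52.3, 48.8 and 48.4 and then 67.8, 74.3 and 70.6 CPM. The lowest library labelled KO of each day was above the highest WT library of that day. The log2FC of Adamts5 was 1.5 (SE 0.144, adjusted p = 4.71e-08) on day 0 and 2.13 (SE 0.119, adjusted p = 2.33e-12) on day 1 in edgeR. For Adamts5, days 3 and 6 gave 1.93 (SE 0.112, adjusted p = 3.44e-12) and 2.08 (SE 0.110, adjusted p = 3.37e-13). Both genotypes gained Adamts5 by day 6, 1.54 (adjusted p = 2.63e-09) in WT and 2.12 (adjusted p = 5.12e-14) in libraries labelled KO in edgeR, and the interaction was 0.58 (SE 0.180, adjusted p = 0.0332). This interaction was lost when any of 10 single libraries was left out, at 0.32 to 0.59, and with limma on log2(TPM + 0.1), at 0.56 (adjusted p = 0.114).

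Adamts1 is the neighbour of Adamts5 on chromosome 16 (chr16:85793827-85803113, minus strand), with 53.1 kb between the annotated genes, and it cleaves versican as well. In WT, Adamts1 stood at 62.1 and 51.7 CPM on day 0 and 39.0, 41.4 and 37.6 on day 1. WT Adamts1 was at 31.6, 33.0 and 32.9 CPM on day 3 and 31.2, 31.5 and 31.4 on day 6. Under the KO label, Adamts1 was at 58.4, 52.7 and 48.6 CPM on day 0, 40.7, 39.4 and 39.3 on day 1, 46.4, 33.5 and 35.4 on day 3 and 50.5, 54.0 and 50.7 on day 6. The values overlapped on days 0 and 1 and were apart on days 3 and 6. The log2FC of Adamts1 was -0.10 (SE 0.107, adjusted p = 0.629) on day 0 and 0.02 (SE 0.0971, adjusted p = 0.902) on day 1 in edgeR. For Adamts1, days 3 and 6 gave 0.24 (SE 0.0981, adjusted p = 0.0498) and 0.72 (SE 0.0975, adjusted p = 2.12e-06). Adamts1 was below its day 0 level on day 6 in WT, with a log2FC of -0.86 (adjusted p = 2.63e-07), but the change in libraries labelled KO was -0.04 (adjusted p = 0.715) in edgeR; the interaction was 0.82 (SE 0.144, adjusted p = 0.000317). The day 3 difference of Adamts1 was lost when any of 19 single libraries was left out, at 0.08 to 0.25, and in 8 other alternatives, at 0.07 to 0.22.

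Adamts4, the third of these proteoglycanases (chr1:171250421-171260637, plus strand), was lower in libraries labelled KO on days 0, 1 and 6, at -0.37 (adjusted p = 0.0348), -0.57 (adjusted p = 0.000134) and -0.40 (adjusted p = 0.00375) in edgeR, and did not pass on day 3 at 0.02 (adjusted p = 0.88). Its day 0 call was lost when any of 9 single libraries was left out, at -0.46 to -0.26. On day 6 WT libraries had 69.3, 85.4 and 85.7 CPM and libraries labelled KO 62.4, 57.0 and 63.1, with no overlap. On the TPM scale, Adamts4 was at 40.1 ± 6.54 (SD, n = 3) in WT and 27.9 ± 2.27 (SD, n = 3) in libraries labelled KO on day 6, Adamts5 at 3.67 ± 0.602 and 14.1 ± 0.483, and Adamts1 at 11.6 ± 1.04 and 17.4 ± 0.821. Per length the order was Adamts4, Adamts1 and Adamts5 in both genotypes, and the ranges of neighbours in this order did not overlap within a genotype.

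The procollagen N-proteinases Adamts2, Adamts3 and Adamts14, which remove the amino-terminal propeptide of fibrillar procollagens, passed in 1, 3, 2 and 2 of 3 genes on days 0, 1, 3 and 6. On day 0 the call was Adamts3 alone. Without Adamts3, whose entry through WT fixed its direction, 2, 1 and 1 of 2 passed on days 1, 3 and 6 in edgeR, each lower in libraries labelled KO. Adamts3 (chr5:89677087-89883334, minus strand) was nearly without counts in libraries labelled KO. WT libraries held 22 and 15 counts on day 0, 42, 49 and 39 on day 1, 49, 55 and 53 on day 3 and 47, 55 and 75 on day 6. Among the 12 libraries labelled KO, 11 held 0 counts and replicate 2 of day 3 held 2. Against a floor of 3 counts per library, Adamts3 on day 0 was at least 6.0-fold lower under the KO label, on day 1 at least 14.0-fold and on day 6 at least 19.4-fold lower. On day 3 the ratio of WT to labelled KO was 75.8, with a 95% exact counting interval of 20.6 to 632. Since Adamts3 passed the filter only through WT, its p-values are a description and no support. The adjusted p from edgeR (Benjamini-Hochberg) was 2.13e-05, 1.48e-07, 1.13e-07 and 2.21e-08 on days 0, 1, 3 and 6, and with limma on log2(TPM + 1) the day 0 difference was -0.22 (adjusted p = 0.0545). A fold computed for 0 counts depends on the prior count, so the fitted log2FC of edgeR is not given.

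Adamts2, the main N-proteinase of type I procollagen (chr11:50602084-50807573, plus strand), had one of the largest rises during differentiation. In WT, Adamts2 stood at 9.85 and 9.91 CPM on day 0 and 40.6, 40.4 and 38.5 on day 1. WT Adamts2 was at 86.8, 99.3 and 83.8 CPM on day 3 and 84.3, 108 and 102 on day 6. On the same days Adamts2 was at 8.67, 8.78 and 6.44, then 27.1, 19.9 and 25.6, then 57.1, 56.8 and 55.1 and then 82.6, 81.9 and 79.2 CPM in libraries labelled KO. Every library labelled KO was below every WT library of the same day, by a narrow margin on days 0 and 6. The log2FC of Adamts2 was -0.31 (SE 0.146, adjusted p = 0.162) on day 0 and -0.72 (SE 0.110, adjusted p = 1.52e-05) on day 1 in edgeR. For Adamts2, days 3 and 6 gave -0.68 (SE 0.105, adjusted p = 1.42e-05) and -0.27 (SE 0.103, adjusted p = 0.0382). The change from day 0 to day 6 was 3.31 (adjusted p = 6.15e-15) in WT and 3.35 (adjusted p = 8.55e-17) in libraries labelled KO (edgeR). The difference between genotypes on day 6 was lost without KO day 6 replicate 2, at -0.28 (adjusted p = 0.0783), without KO day 6 replicate 3, at -0.25 (adjusted p = 0.104), without WT day 6 replicate 2, at -0.20 (adjusted p = 0.173) and without WT day 6 replicate 3, at -0.27 (adjusted p = 0.0549), and with limma on log2(TPM + 1), at -0.25 (adjusted p = 0.0997) and with limma on log2(TPM + 0.1), at -0.25 (adjusted p = 0.131). Adamts14 passed on day 1, at -0.33 (adjusted p = 0.00754) in edgeR, with 95.2, 92.1 and 89.9 CPM in WT and 74.9, 60.6 and 84.9 in libraries labelled KO. The call of Adamts14 was lost with a fit on only the groups compared, at -0.36 (adjusted p = 0.0579). The day 3 difference of Adamts14 was called in 15 alternatives, at -0.35 to -0.24, among them RLE scaling, DESeq2 and both TPM scales.

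Of the 7 other Adamts genes, 3, 4, 6 and 6 passed on days 0, 1, 3 and 6, in both directions; the day 0 count was 1 without KO day 0 replicate 2 and also without WT day 0 replicate 2. The counts of days 1, 3 and 6 include Adamts12, which met the filter only through WT libraries, so its calls there support nothing. Adamts16, which cleaves fibronectin (chr13:70727802-70841811, minus strand), differed between the genotypes on days 3 and 6. In WT, Adamts16 stood at 1.54 and 1.57 CPM on day 0 and 12.9, 12.9 and 13.2 on day 1. WT Adamts16 was at 28.5, 27.5 and 19.3 CPM on day 3 and 29.6, 34.8 and 39.3 on day 6. For Adamts16 the libraries labelled KO gave 0.998, 1.45 and 1.34, then 12.4, 15.6 and 17.0, then 9.28, 6.79 and 6.42 and then 11, 9.72 and 9.32 CPM. The genotypes overlapped on day 1, and on days 3 and 6 every library labelled KO was below every WT library. The log2FC of Adamts16 was -0.30 (SE 0.300, adjusted p = 0.577) on day 0 and 0.21 (SE 0.152, adjusted p = 0.294) on day 1 in edgeR. For Adamts16, days 3 and 6 gave -1.74 (SE 0.157, adjusted p = 5.38e-09) and -1.79 (SE 0.152, adjusted p = 1.48e-09). Against day 0, the log2FC in WT was 3.06 (adjusted p = 1.55e-10) on day 1 and 4.47 (adjusted p = 9.37e-14) on day 6, and in libraries labelled KO 3.57 (adjusted p = 2.52e-12) on day 1 and 2.98 (adjusted p = 1.15e-11) on day 6 in edgeR. The interaction was -1.44 (SE 0.339, adjusted p = 0.00622) on day 3 and -1.48 (SE 0.336, adjusted p = 0.00376) on day 6.

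Adamts6 (chr13:104287835-104496695, plus strand) changed direction. In WT, Adamts6 stood at 20.3 and 21.9 CPM on day 0 and 27.6, 27.3 and 25.5 on day 1. WT Adamts6 was at 61.2, 66.1 and 63.2 CPM on day 3 and 92.2, 73.3 and 92.2 on day 6. Under the KO label, Adamts6 was at 27.8, 25.4 and 26.3 CPM on day 0, 36.2, 40.9 and 38.2 on day 1, 39.3, 35.2 and 30.5 on day 3 and 67.8, 62.5 and 65.8 on day 6. Libraries labelled KO were above WT on days 0 and 1 and below on days 3 and 6, with no overlap. The log2FC of Adamts6 was 0.33 (SE 0.109, adjusted p = 0.0401) on day 0 and 0.52 (SE 0.0941, adjusted p = 0.000113) on day 1 in edgeR. For Adamts6, days 3 and 6 gave -0.86 (SE 0.0923, adjusted p = 8.33e-08) and -0.39 (SE 0.0897, adjusted p = 0.00101). The interaction was -1.19 (SE 0.143, adjusted p = 5.36e-06) on day 3 and -0.72 (SE 0.141, adjusted p = 0.000973) on day 6 in edgeR. The day 0 difference of Adamts6 was lost when any of 5 single libraries was left out, at 0.29 to 0.39, and in 4 other alternatives, at 0.23 to 0.33.

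Adamts10, a protease associated with fibrillin microfibrils (chr17:33524204-33553782, plus strand), was lower in libraries labelled KO on all 4 days. In WT, Adamts10 stood at 10.8 and 11.1 CPM on day 0 and 18.9, 17.3 and 16.6 on day 1. WT Adamts10 was at 14.0, 12.2 and 13.6 CPM on day 3 and 10.9, 16.5 and 12.6 on day 6. On the same days Adamts10 was at 7.49, 6.82 and 6.44, then 9.16, 7.66 and 9.89, then 8.6, 9.69 and 9.29 and then 6.48, 6.67 and 6.14 CPM in libraries labelled KO. The groups were apart each day. The log2FC of Adamts10 was -0.66 (SE 0.146, adjusted p = 0.00222) on day 0 and -0.98 (SE 0.126, adjusted p = 1.54e-06) on day 1 in edgeR. For Adamts10, days 3 and 6 gave -0.53 (SE 0.127, adjusted p = 0.00172) and -1.05 (SE 0.131, adjusted p = 6.26e-07).

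Adamts7 was higher in libraries labelled KO on days 0, 3 and 6, at 0.41 (adjusted p = 0.0254), 0.69 (adjusted p = 1.90e-05) and 0.51 (adjusted p = 0.000515) in edgeR, with 177, 169 and 156 CPM in WT and 271, 287 and 251 in libraries labelled KO on day 3; its product cleaves cartilage oligomeric matrix protein. The day 0 call of Adamts7 was lost without KO day 0 replicate 2, at 0.41 (adjusted p = 0.0584) and without WT day 0 replicate 2, at 0.27 (adjusted p = 0.325), and with library size only, at 0.35 (adjusted p = 0.0548), with limma on log2(TPM + 1), at 0.35 (adjusted p = 0.0834) and with limma on log2(TPM + 0.1), at 0.36 (adjusted p = 0.0728). Adamts12, a related protease, was lower on days 1, 3 and 6; on day 3 the WT libraries held 41, 42 and 30 counts and the libraries labelled KO 1, 1 and 1, a ratio of 36.4 with a 95% exact counting interval of 12.1 to 179. Adamts12 also met the filter only through WT, so its p-values are a description. The edgeR log2FC of Adamts12 was -2.04 (adjusted p = 0.00831) on day 1 and -2.35 (adjusted p = 6.28e-05) on day 6. Its day 1 call was lost with limma on log2(TPM + 1), at -0.14 (adjusted p = 0.193) and with limma on log2(TPM + 0.1), at -0.80 (adjusted p = 0.0545). Adamts13, the protease of von Willebrand factor, was higher on day 3 alone, at 0.41 (adjusted p = 0.0165) in edgeR. The call was lost without KO day 3 replicate 1, at 0.35 (adjusted p = 0.0759) and without WT day 3 replicate 3, at 0.37 (adjusted p = 0.0699), and with limma on log2(TPM + 1), at 0.23 (adjusted p = 0.11) and with limma on log2(TPM + 0.1), at 0.26 (adjusted p = 0.173). Adamts17 held at most 2 counts per library on day 0 and was higher in libraries labelled KO on days 1 and 6, with 0.258, 0.0887 and 0.210 CPM in WT and 1.41, 1.12 and 2.05 in libraries labelled KO on day 6, a log2FC of 3.00 (SE 0.397, adjusted p = 1.59e-06). The day 1 call of Adamts17 was lost with limma on log2(TPM + 0.1), at 0.58 (adjusted p = 0.167).

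Among the 5 Adamts-like genes, 1, 3, 4 and 1 passed on days 0, 1, 3 and 6, where 17.5%, 42.2%, 43.2% and 42.9% of all tested genes did; the day 0 call was lost without WT day 0 replicate 1, the day 3 count was 2 when any of 7 single libraries was left out, and the day 6 count without KO day 1 replicate 2 was 3. Adamtsl1 (punctin, chr4:85514172-86428385, plus strand) was lower in libraries labelled KO on all 4 days, from a low level. In WT, Adamtsl1 stood at 0.704 and 0.417 CPM on day 0 and 1.61, 1.57 and 1.45 on day 1. WT Adamtsl1 was at 4.22, 3.42 and 4.43 CPM on day 3 and 8.72, 9.31 and 10.4 on day 6. For Adamtsl1 the libraries labelled KO gave 0.0454, 0.187 and 0.0927, then 0.586, 0.419 and 0.358, then 0.905, 0.759 and 1.17 and then 2.21, 1.81 and 1.31 CPM. Levels in both genotypes were highest on day 6, and the groups of each day were apart. The log2FC of Adamtsl1 was -2.33 (SE 0.492, adjusted p = 0.00151) on day 0 and -1.76 (SE 0.287, adjusted p = 3.62e-05) on day 1 in edgeR. For Adamtsl1, days 3 and 6 gave -2.09 (SE 0.237, adjusted p = 1.89e-07) and -2.42 (SE 0.212, adjusted p = 2.41e-09). The day 0 call of Adamtsl1 was lost without WT day 0 replicate 1, at -1.88 (adjusted p = 0.079), and with limma on log2(TPM + 1), at -0.12 (adjusted p = 0.823) and with limma on log2(TPM + 0.1), at -0.66 (adjusted p = 0.498). That of day 1 was lost with limma on log2(TPM + 1), at -0.20 (adjusted p = 0.455) and with limma on log2(TPM + 0.1), at -0.60 (adjusted p = 0.354). Adamtsl2, which is known from studies of transforming growth factor beta availability, was nearly without counts on days 0 and 1 and was higher in libraries labelled KO on day 3, at 1.5 (adjusted p = 0.00127) in edgeR, with 1.70, 1.30 and 1.52 CPM in WT and 6.65, 2.37 and 3.81 in libraries labelled KO. Adamtsl3 was lower on days 1 and 3 (-0.69 with adjusted p = 0.000264, and -0.32 with adjusted p = 0.0471), Adamtsl4 on day 3 (-0.37 with adjusted p = 0.0438) and Adamtsl5 on day 1 (-0.52 with adjusted p = 0.0113). The day 3 call of Adamtsl3 was lost when any of 9 single libraries was left out, at -0.34 to -0.31. The day 3 call of Adamtsl4 was lost when any of 8 single libraries was left out, at -0.42 to -0.32. The day 3 difference of Adamtsl2 was lost with limma on log2(TPM + 0.1), at 1.26 (adjusted p = 0.079). The call of Adamtsl5 was lost with a fit on only the groups compared, at -0.55 (adjusted p = 0.0927). The day 3 difference of Adamtsl5 was called in 18 alternatives, at -0.52 to -0.37, among them RLE scaling, DESeq2 and both TPM scales. That of day 6 was called with a fit on only the groups compared, at 0.28 (adjusted p = 0.0374) and without KO day 1 replicate 2, at 0.26 (adjusted p = 0.0176). For Adamtsl4, the difference on day 6 was called in 6 alternatives, at -0.41 to -0.29, among them both TPM scales.

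The series also compared each day of differentiation with growth medium, and here most members rose in both genotypes. In WT, 24 of 32 (21 higher, 3 lower) differed from day 0 on day 1, where 54.7% of all tested genes did, 28 of 32 (25 higher, 3 lower) on day 3 (background 58.2%) and 28 of 32 (25 higher, 3 lower) on day 6 (background 63.6%). In libraries labelled KO the counts were 24 of 32 (20 higher, 4 lower) on day 1 (background 52.3%), 26 of 32 (22 higher, 4 lower) on day 3 (background 57.6%) and 24 of 32 (23 higher, 1 lower) on day 6 (background 70%). Of all tested genes in WT, 27.1%, 29.2% and 32.6% were higher on days 1, 3 and 6, and 27.6%, 29% and 31.1% were lower. Under the KO label 27.2%, 30.4% and 36.6% of them were higher, and 25.2%, 27.2% and 33.5% were lower. With an absolute log2FC of at least 1, 14, 19 and 17 members passed in WT, against 17.5%, 19.9% and 25.5% of all genes, and 11, 14 and 15 under the KO label, against 12.4%, 17.7% and 29.2%. The members' median change on day 6 was 1.29 in WT and 0.77 in libraries labelled KO, against medians of all genes of 0.05 and 0.05. The 3 comparisons within a genotype share their day 0 libraries. The TPM scales moved the median of all genes by 0.076 to 0.176 in these comparisons.

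The largest rises in WT from day 0 to day 6, among genes that reached 5 CPM in a group, were those of Adamts16, Adamtsl1 and Adamts2. By edgeR their log2FC was 4.47 (SE 0.228, adjusted p = 9.37e-14), 4.06 (SE 0.293, adjusted p = 3.42e-11) and 3.31 (SE 0.141, adjusted p = 6.15e-15) with Benjamini-Hochberg adjustment, from the levels given above. In libraries labelled KO the largest, within the same limit, were Adamts2 at 3.35 (SE 0.122, adjusted p = 8.55e-17), Mmp19 at 3.03 (SE 0.159, adjusted p = 5.65e-14) and Adamts16 at 2.98 (SE 0.210, adjusted p = 1.15e-11). Adamtsl1, which stayed under 5 CPM there, had 3.97 (adjusted p = 1.99e-09); Adamtsl2 and Adamts17, at 2 counts or fewer per library on day 0, were called higher too but stayed under this limit. Falls were few: in WT, Mmp23 at -2.01 (adjusted p = 0.000986), Adamts1 at -0.86 (adjusted p = 2.63e-07) and Timp1 at -0.33 (adjusted p = 0.00673) were below day 0 on day 6, and in libraries labelled KO only Timp3 was, at -0.36 (adjusted p = 0.000386), of the 32 genes tested with edgeR.

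By role, the secreted Mmp genes that passed on day 6 were 6 of 6 (6 higher, 0 lower) in WT and 4 of 6 (4 higher, 0 lower) in libraries labelled KO, and the membrane-bound were 3 of 5 (2 higher, 1 lower) and 3 of 5 (3 higher, 0 lower). The inhibitors were 3 of 3 (2 higher, 1 lower) and 3 of 3 (2 higher, 1 lower), and the proteoglycanases 3 of 3 (2 higher, 1 lower) and 2 of 3 (2 higher, 0 lower), in the same order. The procollagen N-proteinases were 3 of 3 (3 higher, 0 lower) and 2 of 3 (2 higher, 0 lower), the other Adamts genes 5 of 7 (5 higher, 0 lower) and 6 of 7 (6 higher, 0 lower), and the Adamts-like genes 5 of 5 (5 higher, 0 lower) and 4 of 5 (4 higher, 0 lower). The share of all tested genes that passed was 63.6% in WT and 70% under the KO label, near that of several of these roles. From day 0 the log2FC of Mmp14 was 0.71 (adjusted p = 8.13e-06) in WT and 0.30 (adjusted p = 0.0105) in libraries labelled KO on day 6 (edgeR), where Mmp2 had 2.03 and 1.47.

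Whether the change since day 0 differed between the genotypes was tested by the interaction of label and day. On day 1, 3 of 32 members passed (all lower in libraries labelled KO relative to WT), where 3.95% of all tested genes did. On day 3 the count was 7 of 32 (2 higher, 5 lower), against 10.7%, and on day 6 12 of 32 (6 higher, 6 lower), against 13%. Of all tested genes, 2.64%, 6.65% and 7.54% passed with a higher and 1.31%, 4.06% and 5.42% with a lower value on days 1, 3 and 6. With an absolute value of at least 1 too, 2, 5 and 7 members passed, against 0.825%, 3.24% and 4.27% of all genes. Mmp9, Mmp15 and Timp3, the genes named on day 1, had the same sign on days 3 and 6. These 3 terms share their day 0 libraries with each other and with the day 0 comparison of genotypes. The day 1 count was 1 without WT day 0 replicate 2 and 1 in a fit on only the groups compared; the day 3 count in that fit was 11. On TPM scales the split of all passing genes moved, on day 3 from 62.1% to 45.2% higher with log2(TPM + 1), and on day 1 from 66.8% to 51.4%.

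Levels summed over a family can be compared per length on the TPM scale. The Mmp genes together went from 348 ± 22.9 TPM (SD, n = 2) on day 0 to 1091 ± 107.5 (SD, n = 3) on day 6 in WT, and from 282 ± 3.44 to 566 ± 41.0 (SD, n = 3 each) in libraries labelled KO. The Timp genes together were at 1108 ± 18.7 and 1397 ± 137 TPM in WT, and at 1093 ± 13 and 1416 ± 54.3 in libraries labelled KO, on the same 2 days. The ranges of the summed Timp level overlapped between the genotypes on both days, and those of the summed Mmp level did not. The ratio of summed Timp to summed Mmp TPM within a library was 3.07 and 3.29 in WT on day 0, 1.30, 1.37 and 1.40 on day 1, 1.45, 1.48 and 1.48 on day 3 and 1.29, 1.27 and 1.28 on day 6. It was 3.78, 3.91 and 3.92, then 1.94, 1.84 and 1.89, then 2.26, 2.14 and 2.23 and then 2.41, 2.55 and 2.56 in libraries labelled KO. Every library labelled KO was above every WT library of its day, and library scaling cancels in this ratio. The group means were 1.28 ± 0.00600 and 2.51 ± 0.0829 (SD, n = 3 each) on day 6; no test is given for a sum over chosen genes.

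**Figure D4:**
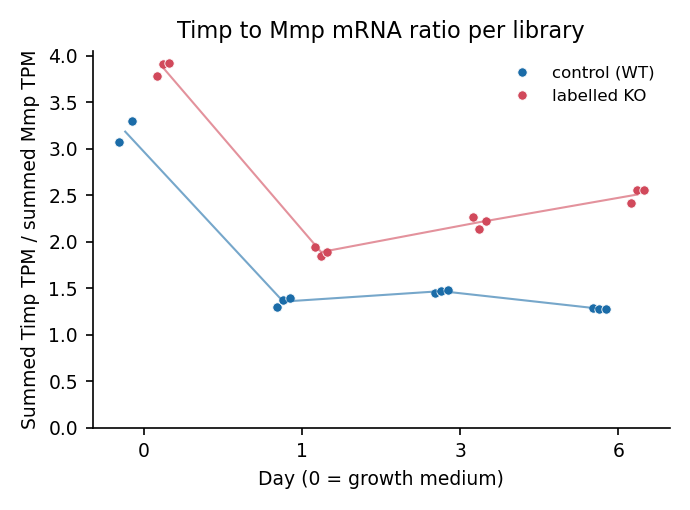
Ratio of summed Timp TPM to summed Mmp TPM (vertical axis, no unit, linear from 0) by day (horizontal axis), with 1 point per library, WT in blue and labelled KO in red; lines join group means. Both genotypes are highest on day 0, and the red points are above the blue on each day.

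The make-up of each sum differed too. Mmp2 and Mmp14 together held 83.5 ± 0.358% (SD, n = 3) of summed Mmp TPM in WT on day 6 and 68.0 ± 1.07% (SD, n = 3) in libraries labelled KO, and 79.6 ± 0.438% (SD, n = 2) and 64.8 ± 0.997% (SD, n = 3) on day 0. Timp2 held 52.0 ± 1.16% of summed Timp TPM in WT on day 3 and 69.9 ± 1.31% (SD, n = 3 each) in libraries labelled KO, on the day when Timp1 and Timp3 were both lower there. The summed Adamts level was at 209 ± 27.7 TPM in WT and 203 ± 17.3 (SD, n = 3 each) in libraries labelled KO on day 6, with ranges that overlapped.

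A list of 36 other genes of pericellular proteolysis (activators, plasminogen system, Adam and cathepsin proteases, and Reck) was read beside these families. Of 28 tested, 11 differed on day 0 (7 higher and 4 lower, by the KO label), 19 on day 1 (6 and 13), 16 on day 3 (4 and 12) and 15 on day 6 (2 and 13). These are 39.3%, 67.9%, 57.1% and 53.6% of the list, beside 17.5%, 42.2%, 43.2% and 42.9% of all tested genes. The list's median log2FC was 0.06, -0.28, -0.23 and -0.16. Adam12 and Adam19, membrane proteases expressed in differentiating myoblasts, were lower on day 3 at -1.18 (adjusted p = 3.02e-07) and -0.87 (adjusted p = 1.12e-08) in edgeR, and Adam8 at -1.18 (adjusted p = 2.50e-07). Htra3, a secreted serine protease, was lower on day 1 at -1.14 (adjusted p = 3.88e-07), and Pcsk6, a proprotein convertase, was higher on day 0 at 1.53 (adjusted p = 3.45e-05).

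Of 8 proteoglycans that these proteases can cut, 4 were tested, and 2, 3, 4 and 3 passed on days 0, 1, 3 and 6, beside 17.5%, 42.2%, 43.2% and 42.9% of all tested genes. Dcn, which encodes decorin, was higher in libraries labelled KO on days 0, 3 and 6 and lower on day 1; this gene and Vcan were named after their values were seen. On day 3 Dcn was at 26.3, 25.7 and 24.9 CPM in WT and 51.0, 50.7 and 53.0 in libraries labelled KO, with no overlap. The edgeR log2FC of Dcn was 1.89 (adjusted p = 0.0102) on day 0, -0.66 (adjusted p = 0.00171) on day 1, 1.01 (adjusted p = 9.71e-06) on day 3 and 0.74 (adjusted p = 0.000319) on day 6. The day 0 call of Dcn was lost without KO day 0 replicate 1, at 1.46 (adjusted p = 0.0568), without WT day 0 replicate 1, at 1.87 (adjusted p = 0.086) and without WT day 0 replicate 2, at 1.92 (adjusted p = 0.069). Vcan, which encodes versican, was lower on day 3 alone, at -0.43 (adjusted p = 0.0354) in edgeR. The call of Vcan was lost without KO day 3 replicate 3, at -0.29 (adjusted p = 0.2), without WT day 3 replicate 1, at -0.41 (adjusted p = 0.0803) and without WT day 3 replicate 2, at -0.44 (adjusted p = 0.0724). Bgn, which encodes the small proteoglycan biglycan, was lower in libraries labelled KO on all 4 days; on day 1 WT libraries had 2167, 2261 and 2134 CPM and libraries labelled KO 514, 396 and 547, a log2FC of -2.17 (SE 0.0919, adjusted p = 1.33e-14) in edgeR. Fmod, which encodes fibromodulin, was lower on days 1, 3 and 6, with 12.5, 9.71 and 6.46 CPM in WT and 1.49, 0.759 and 0.404 in libraries labelled KO on day 3, a log2FC of -3.42 (SE 0.337, adjusted p = 2.10e-08). The groups of Bgn and Fmod were apart on those days. The day 0 difference of Fmod was called in 8 alternatives, at -2.76 to -1.16.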

How the data were processed

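RNA sequencing of 23 libraries was analysed. The authors deposited estimated counts (expected counts, as whole numbers; rounding changed 0 values) and TPM per gene symbol. The counts and TPM were made by the authors with tools that include Bowtie2 and RSEM, with mm10 as the build, per the submitters' processing notes; versions and use of strand are not given in the sources used here. Depth was 22197606 to 23684077 counts per library.

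Counts were tested with edgeR 4.0.16 in R 4.3.3: quasi-likelihood F-test, TMM, filterByExpr (minimum count 10, minimum total 15; 14187 genes kept), 1 model of 8 groups over all libraries, Benjamini-Hochberg over all tested genes, threshold 0.05. A standard error is the absolute log2FC over the square root of F. The 13 contrasts compared the label on 4 days, each later day with day 0 within a genotype, and the 3 interactions of both.

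Members and lists were chosen with earlier results of these data known. Values in every library are given for the Timp genes, for Mmp2, Mmp9, Mmp14, Adamts1 and Adamts5, for members called between genotypes with an absolute log2FC of at least 1 and 5 CPM in a group, and for the 3 largest rises and falls by day 6 that were called and reached 5 CPM. Adamts3, Adamts6, Mmp10 and Mmp17 were added after their values were seen. Up to 8 genes of the pathway list are named by the same limits; 1 of them is not reported here. Of the marker lists, adipocyte genes (2 of 4 at 0 everywhere) summed to at most 1.88 TPM; myoblast, myotube, macrophage, endothelial and chondrocyte sums stand in the text.

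Alternatives: scaling by RLE or by library size only, no filter, a mean count minimum of 50, DESeq2 (1.42.0), limma (3.58.1) on log2(TPM + 1) or log2(TPM + 0.1), a replicate block, a fit without the other groups, a threshold of 0.01, a log2FC limit of 1, and leaving out each library. The floor was 3 counts per library. Replicates differed, with chi-square per degree of freedom of 3.07 to 58.8. On counts simulated for the day 6 comparison (13667 genes), 91% of genes changed 1.5-fold and 100% of those changed 2- or 4-fold were recovered, with 4.43% false calls. The changed genes there had a mean of at least 50 counts, and all genes were given the same spread between replicates, unlike the data. These shares check the code and are not the recovery for the members, several of which are scarcer. Positions and overlaps are from GENCODE vM21 (GRCm38).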

Additional observations from a re-analysis of the deposited data

Results flagged for a closer look

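For the genes here, the change since day 0 differed between libraries labelled KO and WT by the interaction term of edgeR's quasi-likelihood test (Benjamini-Hochberg, log2 scale, positive where libraries labelled KO gained more). Among the inhibitors, the term was -0.58, -1.97 and -1.31 for Timp3 on days 1, 3 and 6, and 0.57 for Timp1 on day 6 (adjusted p = 0.00619). For the secreted proteases it was -1.47, -1.07 and -1.62 for Mmp9 on those 3 days, 0.74 and 1.06 for Mmp19 on days 3 and 6, and -0.56 for Mmp2 on day 6 (adjusted p = 0.00118). For the membrane-bound proteases it was -1.08, -1.54 and -1.67 for Mmp15 on days 1, 3 and 6, and 2.25 for Mmp23 on day 6 (adjusted p = 0.0357). Among the Adamts proteases it was -1.44 and -1.48 for Adamts16 and -1.19 and -0.72 for Adamts6 on days 3 and 6, 0.87 for Adamts13 on day 3 (adjusted p = 0.0184), and 0.82, 0.58 and 4.01 for Adamts1, Adamts5 and Adamts17 on day 6. Adamts17 had at most 2 counts in a day 0 library, so its fitted value depends on the prior count. The term of Adamts17 was lost when any of 9 single libraries was left out, at 3.44 to 4.39, and with no filter, at 4.01 (adjusted p = 0.0502), with limma on log2(TPM + 1), at 0.63 (adjusted p = 0.0572) and with a fit on only the groups compared, at 3.99 (adjusted p = 0.0716). That of Mmp23 was lost when any of 6 single libraries was left out, at 1.28 to 2.24, and with limma on log2(TPM + 0.1), at 1.69 (adjusted p = 0.0758), with replicate block, at 2.24 (adjusted p = 0.0508) and with a fit on only the groups compared, at 2.24 (adjusted p = 0.0503). That of Adamts13 was lost without KO day 0 replicate 1, at 0.66 (adjusted p = 0.0941) and without WT day 0 replicate 2, at 0.72 (adjusted p = 0.168). Mmp19 shares exonic bases with a gene on the opposite strand, and its terms are uncertain for that reason.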

How the results depend on the processing

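Of 261 calls of members over the 13 contrasts, 57 were lost in at least 1 alternative fit at the same threshold and 0 reversed their sign; 32 were lost on a TPM scale and 35 without 1 of the 2 WT day 0 libraries, whose lone partner was then assumed to vary like the other groups. Of 155 values of members that were not called, 35 were called in at least 1 alternative, 17 of them without KO day 1 replicate 2, where 3 were lost. The count of 10 members called in 1 direction on all 4 days was 6 with log2(TPM + 1), 4 with an absolute log2FC of at least 1 and 6 to 11 with each library left out in turn, and this count, and those without the members that met the filter through 1 genotype, were chosen for these alternatives after seeing the data. Counts of members that moved beyond 1.5 times were those that required an absolute log2FC of at least 1, which left 9, 10, 9 and 10 members between genotypes on days 0, 1, 3 and 6, 14 and 17 in WT on days 1 and 6, 11, 14 and 15 in libraries labelled KO on days 1, 3 and 6, and 7 for the day 6 interaction. An adjusted p under 0.01 left 11 members on day 0 and 4 for the day 3 interaction. A fit on only the groups compared called 1 member for the day 1 interaction and 11 for day 3. With each library left out in turn, the counts between genotypes ran over 10 to 18, 22 to 24, 20 to 26 and 19 to 22 on days 0, 1, 3 and 6; the lowest on day 0 came without WT replicate 1. Against day 0 they ran over 21 to 26, 24 to 29 and 24 to 30 in WT and 21 to 24, 25 to 26 and 21 to 26 in libraries labelled KO on days 1, 3 and 6, and for the interaction over 1 to 4, 5 to 10 and 9 to 13, the lowest on day 1 without WT day 0 replicate 2. The value of 2 terms that were not called reversed on a TPM scale and was called there: Adamts3, interaction on day 3, whose positive edgeR value depends on the prior count (0 counts on day 0 under the KO label), was -0.37 with log2(TPM + 1) and -1.14 with log2(TPM + 0.1), and Fmod, on day 6, was 1.08 against -0.84 with log2(TPM + 1); the cause was not tested. The replicate block gave counts between genotypes of 18, 22, 24 and 20, counts against day 0 of 24, 27 and 27 in WT and 23, 26 and 24 in libraries labelled KO, and for the interaction of 3, 6 and 11; 6 calls were lost and 0 gained. Same-numbered libraries correlated at -0.24 to 0.116 in their deviations from the group means over 26 pairs. With so few libraries in a group, this does not show whether they shared a culture or a batch. Depth limits the scarce members: Mmp10, Mmp12, Mmp17, Adamts3, Adamts12, Adamts17 and Adamtsl2 had groups at or under 3 counts per library, where intervals and floors cover counting error only.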

Other observations

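Some of the genes neighbour each other on a chromosome, and their values are given side by side. Adamts13 and Adamtsl2 lie 69.8 kb apart on chromosome 2. Between day 1 and day 3, Adamtsl2 went from 0.0425, 0.0424 and 0.0427 to 1.70, 1.30 and 1.52 CPM in WT, while Adamts13 went from 8.28, 9.97 and 10.2 to 10.8, 11.8 and 10.2. Mmp12 and Mmp10 lie 132.9 kb apart on chromosome 9. On day 6, Mmp10 had 10, 8 and 8 counts in WT and 0 in each library labelled KO, whereas Mmp12 was found in both, at 0.387, 0.133 and 0.587 CPM in WT and 0.0882, 0.172 and 0.261 in libraries labelled KO. Adamts17 was highest on day 1 in both genotypes: WT libraries went from 0.0440 and 0.0926 CPM on day 0 to 3.02, 1.57 and 2.31 on day 1, 0.827, 0.867 and 0.911 on day 3 and 0.258, 0.0887 and 0.210 on day 6. Libraries labelled KO had 4.20, 3.94 and 5.86 CPM on day 1 and 0.905, 1.16 and 0.942 on day 3.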
